A study of Drosophila melanogaster with 4 samples.

Results

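Long stretches of chromosome without any Chromator region were examined in Drosophila melanogaster embryos. The stretches are the intervals of 50000 bp or more between neighbouring enriched regions on arms 2L, 3L, 3R and X. They were chosen by the positions in the authors' combined region list, which covers both replicates of chromatin immunoprecipitation and sequencing (ChIP-seq). Of 4334 intervals between neighbouring regions on these 4 arms, 506 (11.7%) were that long. They held 47.0 Mb, or 48.0% of the 97.9 Mb of the 4 arms.

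Every sample was made from whole embryos of the Oregon-R wild-type strain, aged 14 to 16 hours and fixed with 1.8% formaldehyde, so all cell types of the embryo are pooled. There were 2 ChIP samples, made with the antibody labelled Chro(Chriz)WR, and 2 input samples. The data are 3 lists of enriched regions, namely the combined list with 5762 regions, the list of ChIP replicate 1 with 3987 and the list of ChIP replicate 2 with 3841. Separate embryo collections are not stated for the replicates, whose differences may thus be technical. The lists carry no read totals, so depth is unknown. The lists give no value between regions. Low enrichment, bases without usable reads and true absence of the protein therefore cannot be told apart inside a stretch.

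Chromator (Chro, also called Chriz) has a chromodomain and is best known from polytene interbands, the open chromatin between the dark bands. It is known to act with the zinc finger protein Z4 and to sit with boundary proteins such as BEAF-32 at the edges of chromosome domains and at promoters of broadly active genes. The densely packed bands are known for genes used in few tissues and, in some cases, for late replication. These statements are background and were not measured here.

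Because the combined list set the stretches, their number, length and position are descriptions and no test was made of them. The same holds for the scores of the regions at their ends, which come from the same ChIP samples. The stretches had a median length of 78.1 kb (quartiles 61.4 to 112 kb), against 6.09 kb (2.04 to 15.6 kb) for the 3828 shorter intervals. Shorter intervals together held 42.1% of the 4 arms and the regions themselves 9.74%. By length, 241 stretches were under 75 kb, 98 lay between 75 and 100 kb, 116 between 100 and 150 kb, 39 between 150 and 200 kb, and 12 were longer. The 167 stretches of 100 kb or more held 24.1% of the 4 arms. The 166 longest held 50% of all the sequence in stretches.

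**Figure D1:**
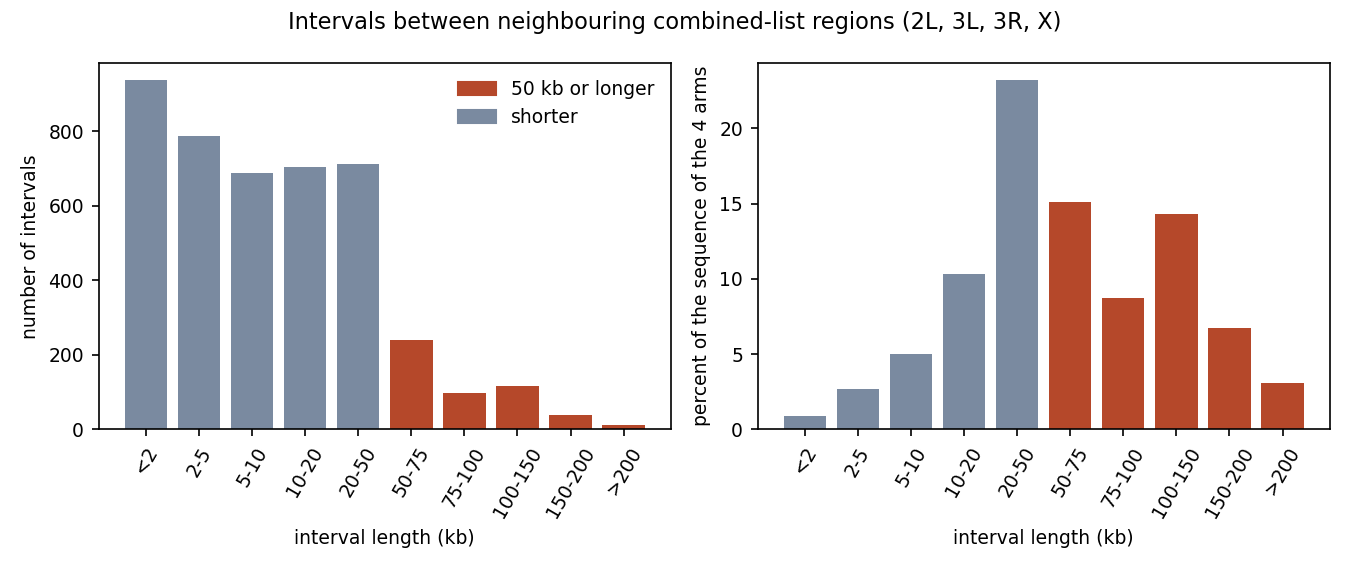
Number of intervals between neighbouring combined-list regions (left) and percent of the 4 arms they hold (right), by interval length in kb. Length classes are unequal in width. Intervals of 50 kb or longer are few (506 of 4334) but hold 48.0% of the sequence, with 15.1% in the class of 50 to 75 kb and 14.3% in that of 100 to 150 kb.

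At the 50000 bp limit the values ran on without a break. The 3 shortest stretches were 50059 bp on 3R (20492167 to 20542225), 50085 bp on 2L (20683255 to 20733339) and 50261 bp on 3R (17868581 to 17918841). The 3 longest intervals left out were 49901 bp on 2L (306947 to 356847), 49863 bp on 3R (14755899 to 14805761) and 49733 bp on 3L (21874607 to 21924339).

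The 4 arms held similar amounts. Arm 2L had 128 stretches covering 51.4% of its length, 3L had 132 covering 49.1%, the X had 107 covering 46.4% and 3R had 139 covering 45.5%. Median lengths lay between 77.7 kb on 3R and 80.7 kb on 2L, so arms differed more in how many stretches they had per length (from 4.77 per Mb on the X to 5.56 per Mb on 2L) than in how long these were. Outside the stretches the regions stood at 86.8 per Mb on 2L, 81.9 on 3L, 84.4 on 3R and 88.0 on the X. Over the whole of each arm they stood at 42.2, 41.7, 46.0 and 47.2 per Mb. Stretches hold no combined-list region by definition, so this rise only restates the share of each arm that they cover. The X had 6 of the 12 stretches of 200 kb or more, 2L had 3, 3R had 2 and 3L had 1.

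Stretches occurred all along the arms. In the 96 full windows of 1 Mb, the share of bases inside stretches had a median of 47.1% (quartiles 37.1 to 58.1%). It was 12.3% in the lowest window, at 5000001 to 6000000 of 3R, which held 79 regions. The highest windows of each arm were 84.3% at 22000001 to 23000000 of 3L with 23 regions, 74.8% at 14000001 to 15000000 of 2L with 21, 71.6% at 20000001 to 21000000 of the X with 28, and 66.0% at 23000001 to 24000000 of 3R with 35. Every window thus held some part of a stretch, and none was filled by them.

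Toward the centromere the arms parted. The centromere lies beyond the high-coordinate end of 2L, 3L and X in these coordinates and beyond the low-coordinate end of 3R. In the 10% of the arm nearest to it, stretches covered 81.7% of 3L and 73.0% of the X, each more than in any other 10% segment of its arm. Arms 2L with 47.1% and 3R with 38.6% stayed within the range of their other segments. The replicate lists, in which stretches were found anew by the same length limit, gave a like order. In that segment, replicate 1 gave 90.8% on 3L, 82.6% on the X, 64.4% on 2L and 56.1% on 3R. Replicate 2 gave 87.7% on 3L, 82.6% on the X, 61.8% on 2L and 54.1% on 3R. On the X the 11 stretches of this segment had a median length of 132 kb, and on 3L the 21 had a median of 88.5 kb, against 70.9 kb on 2L and 65.5 kb on 3R.

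**Figure D2:**
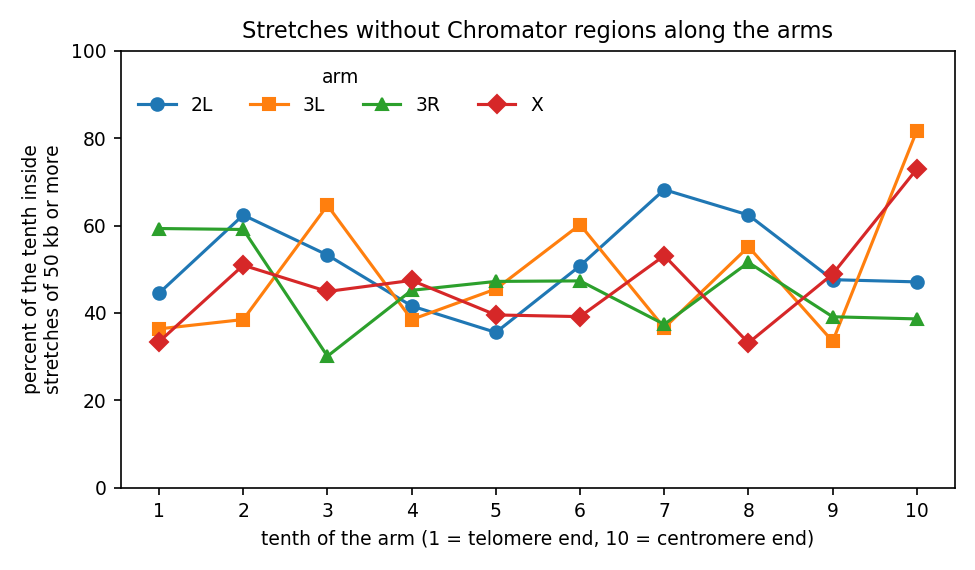
Percent of each successive 10% of an arm that lies inside stretches of 50 kb or more, from the telomere end (1) to the centromere end (10), for arms 2L, 3L, 3R and X. Arms 3L and X reach 81.7% and 73.0% in the segment at the centromere end, while 2L and 3R stand at 47.1% and 38.6%.

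The ends of the arms are outside these intervals, since they have a region on 1 side only. From the arm end to the nearest region was 101367 bp at the telomere end of 3L, and between 6395 and 20438 bp at the other 7 arm ends.

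The longest stretch was 325 kb on 2L (14363031 to 14688359). Its left border scored 0.56 in the combined list, 0.65 in replicate 1 and 0.81 in replicate 2, and its right border 0.57, 0.45 and 0.76. Scores are the authors' own, on a log2 scale that was read from the values. Neither replicate list had a region inside, and the free stretch there was 325449 bp long in replicate 1, with 325583 bp in replicate 2. Both of its borders were thus weak but found in every list.

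The second longest was 297 kb on 2L (3890259 to 4186775). Its left border, 1245 bp wide with a score of 0.46, was in neither replicate list, which left 313193 bp free in replicate 1 and 313221 bp in replicate 2. The third was 292 kb on the X (21505013 to 21796873), close to the centromere end of the arm. Its right border, 1005 bp wide, scored 1.00 in the combined list and 1.27 in replicate 1 and was absent from replicate 2, where the free stretch was 331000 bp against 291474 bp in replicate 1. The fourth, 283 kb on the X (22122245 to 22405709), was also close to that end, and its left border was in neither replicate list. There the free stretch was 462375 bp in replicate 1 and 463141 bp in replicate 2. In 3 of the 4 longest cases, then, 1 border rested on a region that at least 1 replicate list lacked.

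The next 6 were on the X at 7231881 to 7513883 (282 kb), on 3R at 23115527 to 23355215 (240 kb), on the X at 20397237 to 20630589 (233 kb), at 12123281 to 12355895 (233 kb) and at 14498957 to 14719141 (220 kb), and on 2L at 11283025 to 11497999 (215 kb). The stretch on the X at 14498957 had strong borders in every list, with scores of 1.24, 1.27 and 1.34 on the left and 1.12, 1.04 and 1.24 on the right (combined list, replicate 1, replicate 2). That at 20397237 was alike, with 1.07, 1.06 and 1.10 on the left and 1.02, 1.02 and 1.17 on the right. The longest stretch of 3L was 210 kb (18242521 to 18452557), which ranks next after these 10 and held a replicate 2 region. None of the 10 longest held a region of either replicate.

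The next question was what the replicate lists show inside the stretches. Of the 506 stretches, 472 held no region of either replicate, and 34 (6.72%, Wilson 95% interval 4.85 to 9.24, counting error only) held 1 or 2. Since the combined list covers the same ChIP samples, the replicate lists are not independent of it. In all, 15 replicate 1 regions and 22 replicate 2 regions lay wholly inside, which is 0.32 and 0.47 per Mb, against 60.3 and 57.8 per Mb outside the stretches. The sequence outside includes all combined-list regions, which stretches lack by definition, so this gap is largely built in. The shorter intervals alone were not counted. None of the 37 regions inside the stretches was overlapped by a region of the other replicate, and no stretch held a region of each.

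The regions inside were narrow and mostly weak. By the rule for the stretches no combined-list region overlaps them, so they differ by selection from the lists they are set against. Replicate regions inside shorter intervals were not compared. Inside the stretches, regions of replicate 1 had a median score of 0.60 (0.46 to 0.97) and a median width of 1383 bp, against 0.88 and 2161 bp for all replicate 1 regions of the 4 arms. Those of replicate 2 had a median score of 0.73 (0.54 to 1.09) and a median width of 1406 bp, against 0.89 and 2125 bp. Below the list's median score were 14 of the 15 and 17 of the 22. The 5 highest-scoring were on the X at 20736857 to 20738256 (1.09, replicate 2), on 3L at 18197695 to 18199033 (0.99, replicate 2), and on the X at 18322184 to 18323553 (0.97, replicate 1), 998467 to 999888 (0.97, replicate 2) and 2920731 to 2922734 (0.95, replicate 2). All 37 regions together lay a median of 14.6 kb from the nearer edge of their stretch. A further 138 stretches were touched only at an edge. Over all stretches there were 158 such overhangs, which reached a median of 24 bp and at most 746 bp past the combined region.

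In each replicate list alone, nearly all of the 506 stretches lay at a free stretch of 50000 bp or more. On the 4 arms the replicate lists hold 3085 and 2967 regions, against 4338 in the combined list. A free stretch can also run on past the stretch it overlaps. Longer free stretches in the replicate lists are therefore partly built in. The longest free stretch around or within each of the 506 had a median of 136 kb in replicate 1 and 136 kb in replicate 2. Neighbouring stretches can lie in the same free stretch, so long ones enter this median and the counts that follow more than once. The distinct free stretches numbered 412 in replicate 1 with a median of 117 kb, and 408 in replicate 2 with a median of 114 kb. It was 50000 bp or more in 500 cases in replicate 1, in 503 in replicate 2 and in 497 in both. The 9 exceptions each held a replicate region inside, and the shortest free stretches were 41817 bp in replicate 1 and 32885 bp in replicate 2. In 287 cases (56.7%) the free lengths of both replicates were within 1% of each other. In 69 they were over 1.5-fold apart, 34 longer in replicate 1 and 35 longer in replicate 2.

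**Figure D3:**
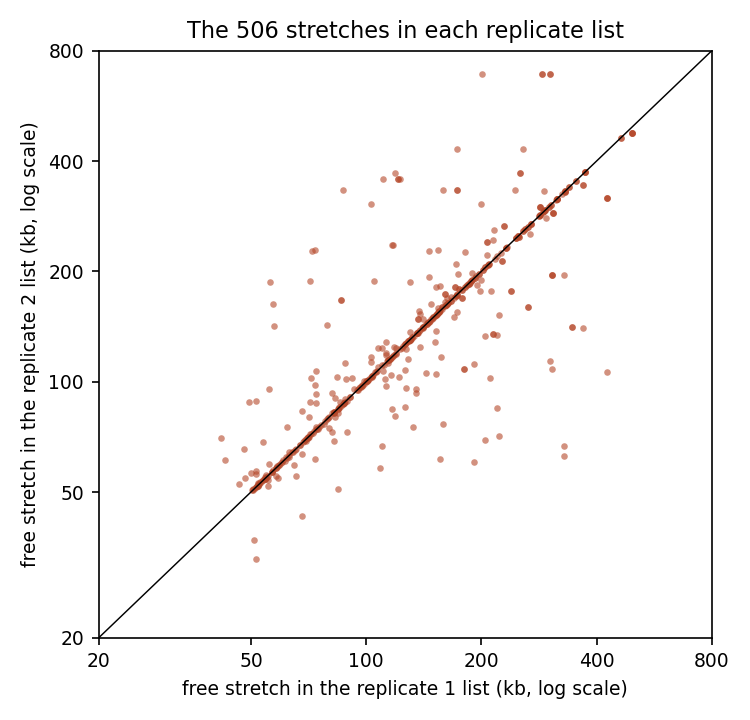
Length of the longest stretch without a region in the replicate 1 list (horizontal) and in the replicate 2 list (vertical), in kb on log axes, at each of the 506 stretches. Many points sit on the line of equal length, where 287 differ by 1% or less, and 69 are over 1.5-fold apart, about as many above the line as below it.

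Stretches whose ends were clear in every list formed a smaller set. Both borders were found in both replicates, with no replicate region inside, in 107 stretches (21.1% of 506), with a median length of 75.2 kb and 9.93 Mb in all. At their 214 ends, the edge positions of the replicates differed by a median of 59 bp (quartiles 28 to 117 bp, highest 1665 bp). The longest of them were the 325 kb stretch of 2L, those of 233 kb and 220 kb on the X at 20397237 and 14498957, and 186 kb on 3R (26428721 to 26614283). The 3R stretch had unequal borders, with scores of 1.25, 1.64 and 1.29 on the left and 0.37, 0.50 and 0.61 on the right (combined list, replicate 1, replicate 2). In 90 stretches neither border was found in any replicate.

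The 506 stretches had 920 border regions, of which 92 bordered a stretch on each side. Borders scored lower than the other regions of the 4 arms in the combined list, with a median of 0.58 (quartiles 0.48 to 0.90) in 920 borders against 0.68 (0.50 to 0.98) in 3418 others. The difference in medians was -0.10 on the log2 scale. It had the same sign on 2L (-0.09), 3L (-0.13), 3R (-0.06) and X (-0.08). The median width was 1999 bp in borders and 2169 bp in the others, and 27.2% of borders against 14.4% of others were narrower than the shortest replicate region of 1301 bp.

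Borders were in the replicate lists less often than other regions. Of the borders, 49.9% (46.7 to 53.1, Wilson) overlapped a region of each replicate, 10.9% a region of 1 replicate and 39.2% none. For other regions the shares were 64.9% (63.3 to 66.5), 12% and 23.1%. Among regions of 1301 bp or wider, the shortest replicate width, the gap was smaller. There, 68.5% of borders and 75.8% of others were in both lists, and 18.2% and 11.3% in neither. With all widths together, median scores split by presence in the replicate lists were close. They were 0.88 in borders and 0.88 in others where both replicates had the region, 0.44 and 0.45 where 1 had it, and 0.49 and 0.48 where neither had it. Borders with a replicate 1 region had a median replicate 1 score of 0.89 (n = 516) against 0.89 in others (n = 2484), and those with a replicate 2 region had 0.89 (n = 502) against 0.90 (n = 2361). Presence in both replicate lists goes with the combined score, as the quartiles of borders show (0.67 to 1.12 in both lists, 0.39 to 0.53 in 1 and 0.44 to 0.55 in neither). Close medians within these kinds are therefore partly built into the split and do not show what the difference of -0.10 came from, which was not tested.

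**Figure D4:**
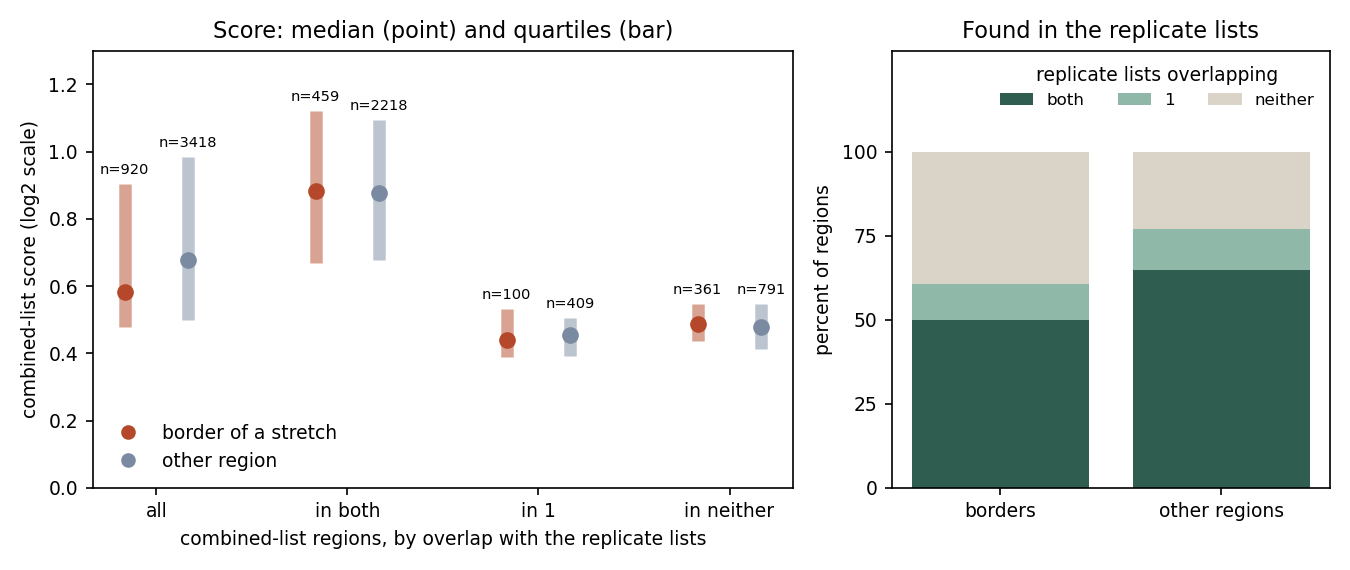
Left, combined-list scores (log2 scale) of border regions and other regions, as median (point) and quartiles (bar), for all regions and by how many replicate lists overlap them. Right, percent of borders and of other regions overlapped by both, 1 or neither list. Medians are 0.58 and 0.68 for all regions but 0.88 and 0.88 for those in both lists, and 39.2% of borders against 23.1% of others are in neither.

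Strong and weak regions both ended stretches. Of the borders, 177 (19.2%) scored above 1, against 812 (23.8%) of the other regions. Both borders lay above the median of the other regions in 81 stretches, both below it in 202, and on different sides of it in 223. The 5 lowest-scoring borders were on 3R at 9913782 (0.22), 2L at 10963838 (0.25), 3R at 11611610 (0.26), 2L at 2723676 (0.26) and 3R at 9033610 (0.28). Of these, 3 were in neither replicate list and 2 in replicate 2 only. Among the 5 highest, the region of 3R at 18060702 to 18061722 scored 3.10, and no region of the 4 arms scored higher. It was 1021 bp wide, lay alone between stretches of 100 kb and 119 kb, and was in neither replicate list. The others were 3L at 4906330 (2.67) and 2L at 22332928 (2.20), both in neither replicate list, 2L at 22508138 (2.07, and 3.31 in replicate 2 only), and X at 10637484 (1.87, with 1.91 in replicate 1 and 2.13 in replicate 2). Of these 5 only the region of the X was found by both replicates, and the other 4 were 1001 to 1061 bp wide. The score of 3.10 was not particular to borders. A region within 16839974 to 17347682 of 3R that bordered no stretch reached it too. Of the 44 regions in the highest 1% of scores, 10 were borders (22.7%), against 21.2% of all regions. In neither replicate list were 3 of these borders and 7 of the other regions in that 1%.

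Border scores did not move with the length of the stretch. The median over both borders was 0.57 for the 241 stretches under 75 kb, 0.56 for the 98 of 75 to 100 kb, 0.58 for the 116 of 100 to 150 kb and 0.58 for the 51 of 150 kb or more. Borders in both replicates made up 49.0%, 43.9%, 44.8% and 54.9% in the same order of lengths.

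Some stretches followed each other across a lone region. Of the 506, 168 (33.2%) shared a border region with another stretch. Sharing is mutual between neighbours, so the 168 are not independent counts and no interval is given. The share was 43.9% on 3L, 35.9% on 2L, 30.8% on the X and 22.3% on 3R. Stretches made up 11.7% of all intervals, with 12.9% on 3L, 13.2% on 2L, 10.1% on the X and 10.8% on 3R. A stretch can meet another on each side, so the sharing figures are not directly comparable with these shares. Whether stretches group together was not tested. There were 63 pairs, 10 runs of 3 and 3 runs of 4. All 3 runs of 4 lay toward the centromere end of 3L, at 22282807 to 22709343 (427 kb), 23273293 to 23561393 (288 kb) and 24068133 to 24528013 (460 kb). Of each, 98.0 to 99.1% was free of combined regions.

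The 92 lone regions between stretches scored lower than the other borders. Their median score was 0.53 (0.46 to 0.63) and their median width 1328 bp, against 0.59 and 2047 bp in the 828 regions that bordered a single stretch. Of the 92, 62 (67.4%) were in neither replicate list, 7 in 1 and 23 (25%) in both. In the run at 24068133 of 3L, the lone regions scored 0.38 (0.49 in replicate 1 only), 0.49 (neither replicate) and 0.53 (0.79 in replicate 2 only). None of the lone regions of that run was found by both. In contrast, the run at 23273293 of 3L had a first lone region with a width of 3263 bp and a combined score of 0.95, found by both replicates, and the other 2 were in neither replicate list. Some lone regions were strong in every list. That on the X at 15032376 to 15034990, between stretches of 51.2 and 151 kb, scored 1.85 in the combined list, 1.89 in replicate 1 and 1.93 in replicate 2. It was chosen after its values were seen, as the highest-scoring lone region that both replicates held.

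A like gradient was seen in all regions of the 4 arms with a neighbour on each side, when grouped by the nearer neighbour. Where the nearer neighbour was under 2 kb away, 70.1% of 1631 regions were in both replicate lists and 17.3% in neither, with a median score of 0.70. With 2 to 5 kb to the nearer neighbour these were 69.0%, 19.4% and 0.73 (n = 1023), with 5 to 10 kb 60.5%, 29.5% and 0.65 (n = 698), and with 10 to 20 kb 49.1%, 38.7% and 0.58 (n = 517). At 20 to 50 kb they were 33.9%, 54.2% and 0.54 (n = 369), and at 50 kb or more they were 25%, 67.4% and 0.53 (n = 92). That last class is the 92 lone regions described above. Past 5 kb, each more isolated class was found by both replicates less often and scored lower. Grouped by the farther neighbour, median scores showed no fall up to 20 kb (0.70, 0.68, 0.71 and 0.74). They were 0.61 at 20 to 50 kb and 0.58 at 50 kb or more. The share in both lists went from 73.3% under 2 kb to 67.6% at 10 to 20 kb, 54.7% at 20 to 50 kb and 49.8% beyond. The median width was 1328 bp at 50 kb or more and 1555 bp at 20 to 50 kb, against 2185 bp under 2 kb.

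**Figure D5:**
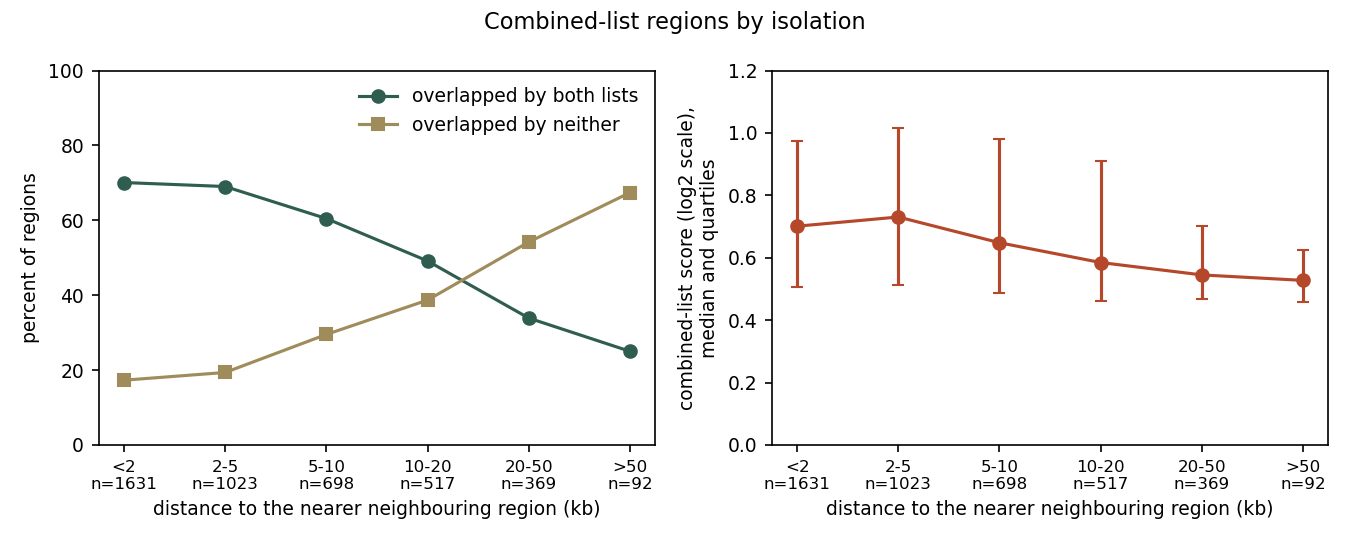
Regions of the 4 arms by distance in kb to the nearer neighbouring region. Left, percent overlapped by both replicate lists and by neither. Right, combined-list score (log2 scale) as median with quartiles. From the closest to the most isolated class, the share in both lists goes from 70.1% to 25% and the median score from 0.70 to 0.53.

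Between consecutive stretches lay 502 islands of regions. They held a median of 5 regions (quartiles 2 to 11) and were a median of 57.6 kb long (13.2 to 140 kb). Islands of 10 or more regions numbered 151 and held 68.5% of all regions of the 4 arms. The longest were 715 kb on 3R (19488720 to 20203576) with 66 regions, 693 kb on the X (8889680 to 9583164) with 48, and 687 kb on 3R (5045382 to 5732858) with 66. These 3 were chosen as the longest after their values were seen. Going outward from an edge of a stretch, regions covered 28.6% of the first 10 kb, which includes the border itself, 11.6% of the next 10 kb and 8.82% at 90 to 100 kb. Outward from intervals of 10 to 50 kb the values were 32.4%, 13.9% and 10.2%. From intervals under 10 kb they were 37.4%, 16.5% and 11.2%, and the mean over the 4 arms was 9.74%. Coverage beside an interval was thus graded by its length and not particular to the stretches.

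Where only regions found by both replicates were kept, some stretches joined. The 506 then lay in 396 stretches, of which 312 held 1 and 84 held 2 to 6. In 115 cases, where both borders were in both replicate lists, the stretch was the same as before. A further 118 stretches of 50000 bp or more appeared where there had been none. Together these 514 covered 67.7% of the 4 arms, with a median of 103 kb. The longest was 819 kb at 23709289 to 24528013 of 3L, which held 6 of the 506, 9 combined-list regions, 3 replicate 1 regions and 2 replicate 2 regions. On its centromere side it ended at a combined region with a score of 0.86. Next were 494 kb (16889549 to 17383111) and 484 kb (15772247 to 16256521) on 2L, and 462 kb on the X (21943309 to 22405709).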

How the data were processed

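Chromator ChIP-seq of 2 ChIP and 2 input samples was used as 3 deposited region lists, 1 per ChIP replicate and 1 combined. The authors deposited 1 score per region, on a log2 scale that no header names. Raised as a power of 2, 5739 of 5762 combined scores, 3985 of 3987 of replicate 1 and 3838 of 3841 of replicate 2 equalled a whole-number ratio multiplied by a constant of their list (relative tolerance 1e-11, denominators up to 3000), against 1 of 3000 random numbers. Bowtie 0.12.7 was used, per the submitters' processing notes. Coordinates are those of FlyBase release 5, per the file headers. For the region caller, the threshold and the combining step, the method was not given in the sources used here. The shortest region is 1001 bp in the combined list and 1301 bp in the replicate lists.

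Intervals run from the end of a region plus 1 to the next start minus 1, in 1-based positions. Overlap means at least 1 bp, and a replicate score is that of the replicate region overlapping most. Some shares have Wilson 95% intervals, covering counting error only. Computation used pandas 2.3.3 and numpy 2.4.6 under Python 3.11.15, with intervals from scipy 1.17.1 and plots from matplotlib 3.10.9. The steps were tested on simulated data with known stretches. No p-value was computed, since the stretches were chosen on the same lists. Stretches, lists of named regions and alternatives were chosen with earlier results of these data known. Named were the 10 longest stretches, the longest of each arm, the longest runs, the 5 highest-scoring replicate regions inside, the 3 values on each side of the limit, the 5 highest and lowest borders and the fullest window of each arm. The reference table has Release 6 coordinates, so no gene is named and no sequence is shown. Other arms and scaffolds were not analysed here.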

Additional observations from a re-analysis of the deposited data

How the results depend on the processing

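Changing the length limit from 50 kb (506 stretches, 48.0% of the 4 arms) gave 657 stretches and 54.9% at 40 kb, 265 and 32.9% at 75 kb, and 167 and 24.1% at 100 kb. Other sources of regions changed the number little and the share more. With either replicate list alone the number was 517 to 519 and the share 64.7 to 64.8%. Regions found by both replicates gave 514 and 67.7%, and combined regions of 1301 bp or wider (the shortest replicate width) 515 and 57.9%. Regions scoring at or above the median of the whole combined list, other arms and scaffolds included, gave 535 and 72.3%. All 3 lists together gave 495 and 46.8%. Counting the arm ends gave 48.1%. The median border score minus that of other regions (-0.0967) was -0.109, -0.0877 and -0.0754 with limits of 40, 75 and 100 kb, and -0.0611 among regions of 1301 bp or wider, an alternative added after the data were seen. It was 0.0040 among regions found by both replicates and from -0.00846 to 0.00237 with the scores of 1 replicate alone. These alternatives keep only regions that passed into a replicate list, which leaves out many low-scoring regions by construction. The share of stretches with a replicate region inside (6.72%) was 34.0% when 1 bp at an edge sufficed. It was 2.96 to 3.75% when regions of 1 replicate list alone were counted inside the same stretches. Stretches linked to another (33.2%) made up 39.1% and 49.4% when gaps of up to 10 and 20 kb between them were allowed. No paired analysis was possible because the results come from no test between groups, and the input samples have no column of values among those used. What depth limits cannot be read from the lists.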
